A study of Homo sapiens with 6 samples.

Results

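The insulin-like growth factor (IGF) axis is described here through 10 genes of the 58735 in the table: the binding proteins IGFBP2, IGFBP3, IGFBP4, IGFBP6 and IGFBP7, the receptors IGF1R, IGF2R and INSR, and the receptor substrates IRS1 and IRS2. They were taken by gene symbol. The set was chosen by the drop of IGFBP3 between the 2 groups of this same comparison, so the changes of the 10 genes are a description and support nothing by themselves. The RNA came from the papillary thyroid cancer line TPC1, a single established cell line in culture. In 3 libraries the cells had been transfected with si-circ_0000839, an siRNA that targets the circular RNA hsa_circ_0000839, and in 3 with a negative-control siRNA (NC), both for 60 h. The comparison asks which transcripts differ after transfection of this siRNA. The level of the circular RNA was not measured here, so the depth of silencing is unknown. Libraries called silenced below are those given si-circ_0000839. Effects of this siRNA on other transcripts cannot be told apart from those of a loss of the circular RNA. The labels do not say whether replicates were separate cultures, so any p measures only the spread between these libraries, which may be technical.

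IGF1 and IGF2 are secreted peptides that signal through the receptor tyrosine kinase IGF1R and, in part, through the insulin receptor INSR. Activated receptors phosphorylate the adaptors IRS1 and IRS2, which recruit phosphoinositide 3-kinase (PI3K) and start the AKT and mTOR chain. Secreted IGF-binding proteins hold the ligands away from the receptor or carry them to it, and proteases that cut the binding proteins free the ligand. IGF2R has no kinase: it takes IGF2 into the cell for breakdown and sorts enzymes tagged with mannose 6-phosphate to the lysosome.

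The libraries held 18399558 to 19334633 reads, recovered from the FPKM steps. Lineage genes of the thyroid were partly present: PAX8 had a mean of 95.8 FPKM in NC and FOXE1 10.9, while 0 reads were found for NKX2-1, TSHR and SLC5A5 in any library. The GC content of transcripts moved with single libraries. For the 2133 tested genes with a GC content of 58.5% or more, si-circ_0000839 replicate 1 lay 0.11 and NC replicate 2 lay 0.08 above the gene means on the log2 scale, and the other 4 libraries lay between -0.07 and -0.01. The largest FPKM sums were also those of si-circ_0000839 replicate 1 (306764) and NC replicate 2 (325107), against 293173 to 296945 in the rest. The part of scaling in the high values of these 2 libraries was not tested. Results on the 10 genes are therefore given with these libraries and without them, or with the trend removed, where this matters.

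TPC1 cells expressed the binding proteins IGFBP3, IGFBP4, IGFBP6 and IGFBP7 at higher levels than any of the 3 receptors, which stood above IGFBP2, and made hardly any transcript of the ligands. In NC the order by FPKM, a unit per gene length that allows levels of different genes to be set side by side, ran from IGFBP7 at 262 ± 7.15 FPKM (SD, n = 3) through IGFBP6 at 205 ± 14.2, IGFBP4 at 69.3 ± 6.39 and IGFBP3 at 64.0 ± 2.29. IGF2R followed at 13.7 ± 0.463, IRS1 at 8.20 ± 1.17 and IRS2 at 2.16 ± 0.363. IGF1R at 0.713 ± 0.0291, INSR at 0.418 ± 0.0609 and IGFBP2 at 0.0844 ± 0.0365 closed the order. Of the 9 pairs of neighbours in this order only IGFBP4 and IGFBP3 had NC ranges that overlapped. Each gene stood above the next one in all 6 libraries, IGFBP4 above IGFBP3 included.

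**Figure D1:**
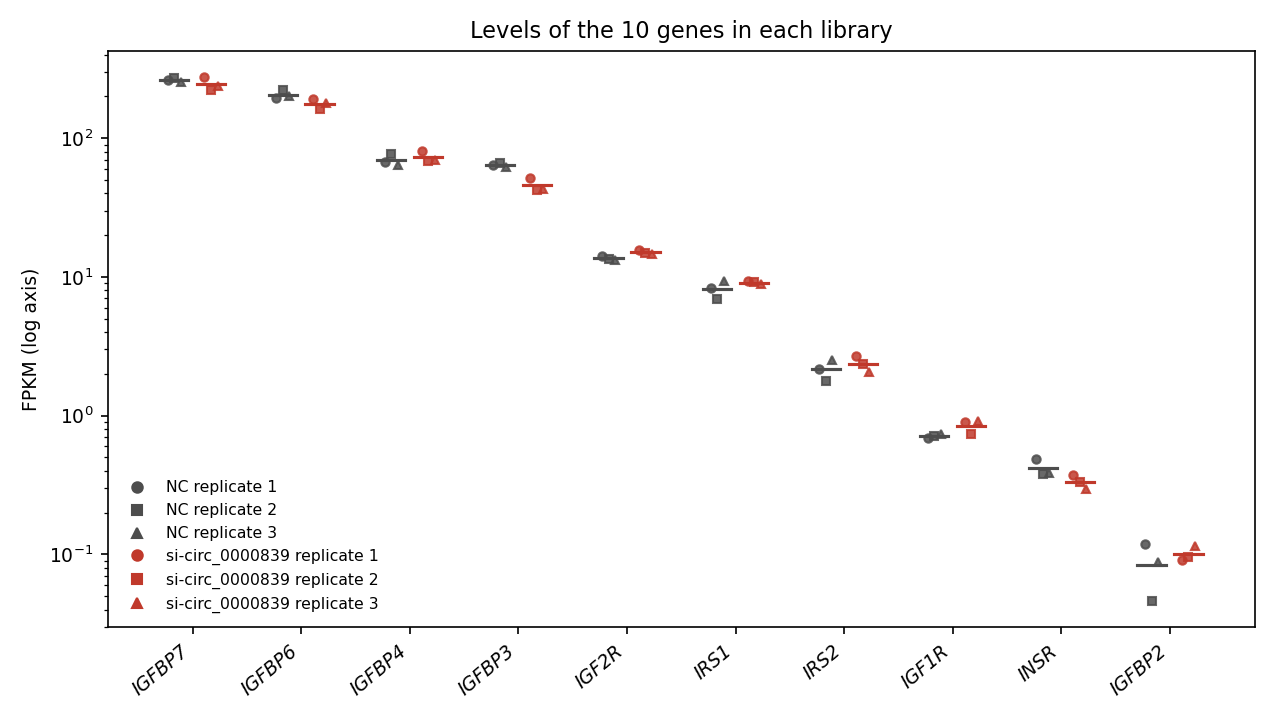
FPKM (log axis) of the 10 genes in each of the 6 libraries, in order of the NC mean. Points are libraries, horizontal lines are group means (n = 3). The 4 abundant binding proteins stand above 40 FPKM in every library, and IGF1R, INSR and IGFBP2 stay under 1 FPKM.

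Ligands were close to or under the limit of detection. INS had 0 reads in all libraries, where 3 reads would have given at most 0.213 FPKM, a limit that covers counting error only. IGF1 had 1 read in a single NC library and 0 in the other 5. IGF2 had 6 to 14 reads per library, which is 0.0473 to 0.109 FPKM. IGFALS, the serum partner that joins IGFBP3 and IGF in a ternary complex, had 0 to 4 reads.

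IGFBP3, the main carrier of IGF in serum and a protein that also acts on cells without IGF, was the only one of the 7 tested genes to pass the threshold over all genes, and it fell. It stood at 63.8, 66.4 and 61.8 FPKM in NC replicates 1, 2 and 3, and at 51.8, 42.5 and 43.4 after si-circ_0000839. All 3 silenced libraries lay under all 3 NC libraries, and replicate 1 was the least low of them. The group means were 64.0 ± 2.29 and 45.9 ± 5.13 FPKM (SD, n = 3 per group), 1.39-fold apart, on 5377 to 5662 reads per library in NC and 3647 to 4342 after si-circ_0000839. In bulk RNA, fewer cells that express a gene and less RNA per cell cannot be told apart. The log2 change on the scale of log2(FPKM + 1) was -0.48 (SE 0.08, adjusted p = 0.0456 in limma over 10674 tested genes), and it is this value that chose the gene.

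The call of IGFBP3 sat near the threshold, while the size of its change varied little. Gene filters, the prior variance and a replicate block cannot move that size. All settings also reuse the libraries whose drop chose the gene, so a steady size supports nothing further. Across 19 other settings the log2 change ranged from -0.56 to -0.42 and the adjusted p in limma from 0.00476, with its voom form on recovered reads, to 0.329, with 11 settings under 0.05 and 8 above it. The threshold was missed when either si-circ_0000839 replicate 2 (0.123) or replicate 3 (0.168) was left out, and when NC replicate 1 (0.129), 2 (0.0769) or 3 (0.108) was. It was also missed with no filter on low genes (0.329), with a constant prior variance (0.0722) and with the replicate number as a block (0.0741). Without si-circ_0000839 replicate 1 the change was -0.56 (adjusted p = 0.0179), and without both libraries with a raised GC trend it was -0.54 (adjusted p = 0.0119).

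**Figure D2:**
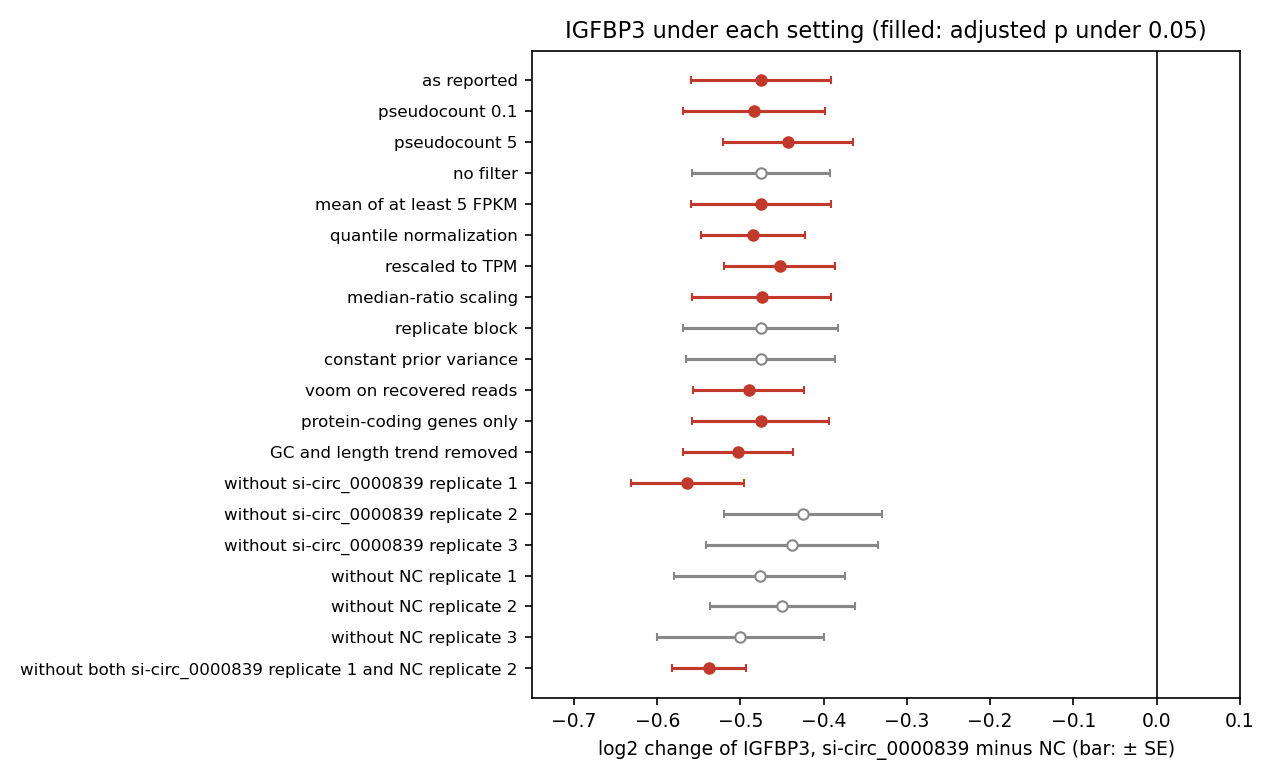
Log2 change of IGFBP3, si-circ_0000839 minus NC, under the reported fit and 19 other settings, with bars of 1 SE. Filled points have an adjusted p under 0.05. All points lie between -0.56 and -0.42, and the 8 open points include 5 of the 6 fits with 1 library left out.

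The fit called 41 of 10674 tested genes, which is 0.384%, 14 higher and 27 lower (0.253% for lower alone). The split moved to 29 higher and 34 lower after quantile normalization and to 32 and 24 after rescaling to TPM. Of the 10 described genes 7 reached the mean of 1 FPKM needed for the test, and 1 of the 7 was called. Since this comparison chose the set, nothing is read from that share. The 3 genes under the filter were IGF1R, INSR and IGFBP2.

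IGFBP3 (ENSG00000146674) lies on chromosome 7 from 45912245 to 45921874, minus strand, GRCh38. Its neighbour IGFBP1, a binding protein typical of liver, lies 18.6 kilobases away and points toward it. IGFBP1 stayed at 5 to 11 reads per library, 0.166 to 0.349 FPKM in NC and 0.198 to 0.308 after si-circ_0000839, so the pair did not share a level. No other annotated gene shares positions with IGFBP3.

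The promoter next to the start of IGFBP3 is shown beside that of IGFBP4 because both genes stood at nearly the same level in NC while their log2 changes were -0.48 and 0.07, the latter uncalled and 0.0010 to 0.14 with 1 library left out. Each stretch runs from base 100 to base 6 before the RefSeq transcript start (RefSeq table, build GRCh38.p14), at chr7:45921278-45921372 on the minus strand and chr17:40443350-40443444 on the plus strand. The RefSeq start of IGFBP3, at base 45921272, lies inside the longer span of the deposited gene, which begins at 45921874, and that of IGFBP4, at 40443450, lies close to the deposited start. Capitals mark TATA, with directly following TA or AA, and GGGCGG or its reverse complement.
IGFBP3: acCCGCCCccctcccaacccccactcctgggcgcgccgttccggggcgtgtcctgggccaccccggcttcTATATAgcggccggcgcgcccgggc
IGFBP4: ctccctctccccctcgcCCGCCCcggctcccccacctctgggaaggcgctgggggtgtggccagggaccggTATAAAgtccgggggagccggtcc
The TATA letters begin 30 bases before the start of IGFBP3 and 29 before that of IGFBP4. In 300-base windows, 250 before and 50 after the start, TATA was found in 29.2% of 35116 RefSeq promoters, TATAAA in 11.5% and GGGCGG in 45.0%, counted on both strands. Of the 9 described genes with a promoter in that table, IGFBP3 and IGFBP4 alone held TATA. The IGFBP3 window had a GC content of 74.7% with 36 CG pairs and that of IGFBP4 74.0% with 30, where the median over all promoters was 58.7% and 14. These letter matches are a description of the sequence and not of a bound site.

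The other abundant binding proteins differed less between the groups. IGFBP4 (chromosome 17, 40443461 to 40457731, plus strand), which mostly restrains IGF and is cut by the protease PAPPA, stood at 67.5, 76.4 and 64.0 FPKM in NC and at 80.5, 68.3 and 70.0 after si-circ_0000839. The groups overlapped, with the highest value in si-circ_0000839 replicate 1 and the next in NC replicate 2, the libraries with the raised GC trend. Its transcript has a GC content of 62.5%. With the trend removed the 3 silenced libraries all lay above the NC libraries, by 0.08 on average on the log2 scale (adjusted p = 0.370 in limma). The nearest pair almost met, with silenced replicate 3 at -0.0065 and NC replicate 2 at -0.0103 relative to the gene mean. As deposited, the log2 change of 0.07 became 0.0010 without si-circ_0000839 replicate 1, 0.02 without NC replicate 3 and 0.14 without NC replicate 2.

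IGFBP6 (chromosome 12, 53097436 to 53102345, plus strand), a binding protein that prefers IGF2, stood at 195, 221 and 200 FPKM in NC and at 192, 162 and 179 after si-circ_0000839. The silenced libraries all lay lower, but replicate 1 came within 3 FPKM of the lowest NC library. The log2 change was -0.21 (SE 0.08), or -0.17 with the GC and length trend removed, where the groups also stayed apart. IGFBP7 (chromosome 4, 57030773 to 57110385, minus strand), an atypical member with weak affinity for IGF, was the most abundant of the 10 genes. It was at 262, 270 and 256 FPKM in NC and at 276, 223 and 239 after si-circ_0000839, a wider spread that overlapped NC on account of replicate 1. POLR2B, a subunit of RNA polymerase II at a mean of 11.9 FPKM, lies across IGFBP7 on the opposite strand, and as the strand setting is not given in the sources used here, reads of that pair cannot be assigned with certainty.

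Ratios of FPKM within a library do not depend on how that library was scaled, but they still carry its GC trend. The transcript of IGFBP3 has a GC content of 49.5%, against 62.5% for IGFBP4, 64.1% for IGFBP6 and 52.1% for IGFBP7. Ratios with the trend removed were not computed. IGFBP3 had 0.244, 0.246 and 0.242 times the FPKM of IGFBP7 in NC replicates 1 to 3, and 0.188, 0.191 and 0.181 times after si-circ_0000839. The gap between the groups was thus wider than the spread inside either one (SD 0.0021 in NC and 0.0050 after si-circ_0000839, n = 3 each). Relative to IGFBP4 the ratio was 0.947, 0.869 and 0.965 in NC and 0.643, 0.623 and 0.619 after si-circ_0000839. Relative to IGFBP6 it was 0.328, 0.300 and 0.309 against 0.270, 0.263 and 0.242. In all 3 ratios the groups did not overlap. As IGFBP3 stands in each ratio and its drop chose the set, this describes the same difference again and supports nothing further.

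**Figure D3:**
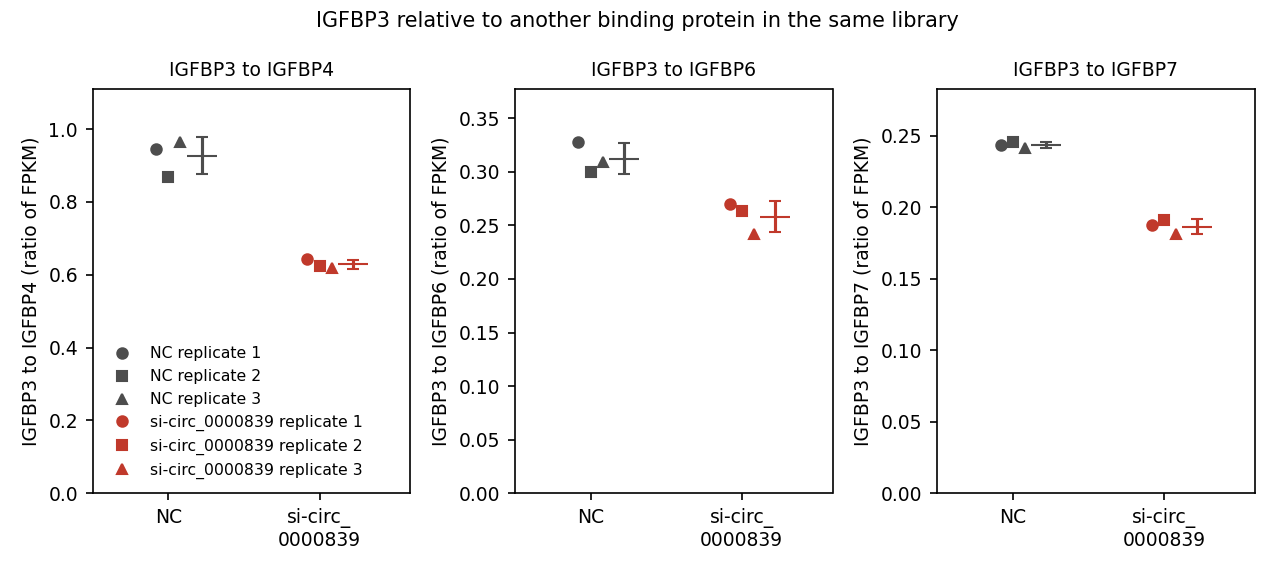
FPKM of IGFBP3 divided by that of IGFBP4, IGFBP6 or IGFBP7 in the same library, for 3 NC and 3 si-circ_0000839 libraries. Points are libraries, bars are the mean ± SD, and the axes start at 0. The ratio to IGFBP7 is 0.242 to 0.246 in NC and 0.181 to 0.191 after si-circ_0000839.

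As a share of the summed FPKM of IGFBP1 to IGFBP7, IGFBP3 made up 10.6% ± 0.198 in NC and 8.44% ± 0.267 after si-circ_0000839 (SD, n = 3). IGFBP7 held 43.6% and 45.3%, IGFBP6 34.1% and 32.7%, and IGFBP4 11.5% and 13.4%. The shares of IGFBP3, IGFBP4 and IGFBP7 did not overlap between the groups, and those of IGFBP6 overlapped. For IGFBP7 this was narrow, as its lowest silenced share of 44.9% lay just over the highest NC share of 44.5%. All shares are parts of the same sum, so a drop of IGFBP3, which chose the set, raises the other shares if nothing else moves. The mean of IGFBP6 was also lower, at 178 FPKM after si-circ_0000839 against 205 in NC. The part of each gene in the shares was not tested. In FPKM the groups of IGFBP4 and IGFBP7 overlapped, so their shares support nothing further. The sum itself was 582 to 635 FPKM in NC and 496 to 601 after si-circ_0000839, so the groups overlapped in it.

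IGFBP2 and IGFBP5, which sit 7.67 kilobases apart on chromosome 2, were nearly silent. IGFBP2 (216632828 to 216664436, plus strand), an abundant carrier in other tissues, had 4 to 11 reads per library, at 0.119, 0.0462 and 0.0881 FPKM in NC and 0.0915, 0.0960 and 0.114 after si-circ_0000839. At this depth a difference between the groups was not detectable. IGFBP5 had 29 to 47 reads, at 0.335 ± 0.0711 FPKM in NC against 0.291 ± 0.0406 after si-circ_0000839.

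Proteases of the binding proteins and their stanniocalcin inhibitors ranged from ADAM28, at 1 to 7 reads per library, to STC2, at a mean of 27.2 FPKM. Of 8 listed genes 4 were tested, and 0 passed in limma or in voom, a form of limma fitted to the recovered reads, while 2 had an unadjusted p under 0.05, as did 12.6% of all tested genes. All 4 had a log2 change below 0, with a median of -0.13 against 0.0057 over all tested genes, of which 51.8% were above 0. ADAM9, a membrane protease, stood at 24.1 ± 3.01 FPKM in NC against 19.5 ± 2.01 after si-circ_0000839 (log2 change -0.29, adjusted p = 0.288 in limma). STC1, a stanniocalcin that blocks the PAPPA proteases, stood at 2.41 ± 0.210 and 1.96 ± 0.0670 (adjusted p = 0.347 in limma). Its relative STC2, the most abundant of the list, was at 27.7 ± 3.11 and 26.7 ± 3.27. PAPPA, which cuts IGFBP4, was under the filter at 0.940 and 0.892 FPKM.

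Receptors were low apart from IGF2R. IGF2R (chromosome 6, 159969099 to 160113507, plus strand), the scavenger receptor, stood at 14.2, 13.5 and 13.3 FPKM in NC and at 15.5, 14.8 and 14.7 after si-circ_0000839, so that every silenced library lay above every NC library, by 1.10-fold in the means. The log2 change was 0.13 (SE 0.07), and 0.05 with the GC and length trend removed. IGF1R (chromosome 15, 98648539 to 98964530, plus strand), the signalling receptor, stood at 0.684, 0.714 and 0.742 FPKM in NC, and at 0.896, 0.737 and 0.912 after si-circ_0000839. Silenced replicate 2 lay inside the NC range, and the other 2 lay above it. These values rest on 181 to 234 reads per library.

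INSR (chromosome 19, 7112255 to 7294034, minus strand), the insulin receptor, stood at 0.488, 0.379 and 0.387 FPKM in NC and at 0.376, 0.331 and 0.296 after si-circ_0000839. The silenced libraries lay lower in all 3, though the nearest pair differed by less than 0.01 FPKM, on 57 to 99 reads. Both signalling receptors were left out of the test by the filter. Of all 10 described genes, 4 had groups that did not overlap: IGFBP3, IGFBP6 and INSR lower, IGF2R higher. Of the 7 tested genes 3 were apart in this way, IGFBP3 and IGFBP6 lower and IGF2R higher. Over the whole table of tested genes such a separation was seen in 18.1%, with 7.55% lower and 10.6% higher.

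IRS1 (chromosome 2, 226731317 to 226799759, minus strand), the docking protein of both signalling receptors, stood at 8.30, 6.98 and 9.32 FPKM in NC and at 9.27, 9.18 and 8.82 after si-circ_0000839. Its close relative IRS2 (chromosome 13, 109752698 to 109786568, minus strand) stood at 2.18, 1.78 and 2.51 in NC and at 2.67, 2.34 and 2.06 after si-circ_0000839. In both genes the groups overlapped, and NC replicate 2 was the lowest of all 6 libraries. Without NC replicate 2 the log2 change of IRS1 was 0.04 in place of 0.14, and that of IRS2 0.00 in place of 0.09. IRS2 turned to -0.06 without both NC replicate 2 and si-circ_0000839 replicate 1.

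**Figure D4:**
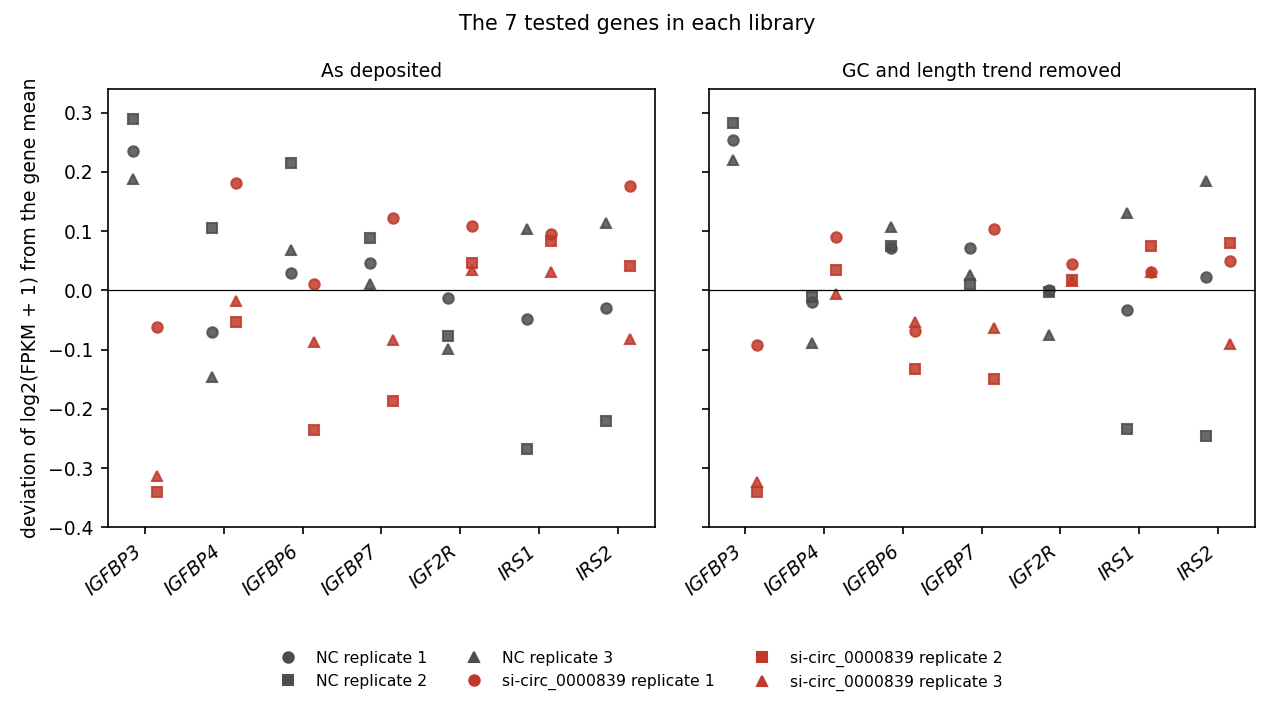
Deviation of log2(FPKM + 1) from the gene mean for the 7 tested genes in each library, as deposited (left) and with each library's GC and length trend taken out (right). IGFBP3 keeps its gap at -0.48 and -0.50 in the left and right panels, and the spread of IGFBP4 and IGFBP6 narrows.

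Beyond the receptors, the pathway was described through lists of genes taken from their textbook roles. Over these lists, without the 10 genes, 73 of 95 were tested and 0 passed in limma, against the 0.384% of all tested genes. At an unadjusted p under 0.05 there were 10, of which 5 were higher and 5 lower, against 12.6% of all tested genes, and voom called 0 of them, against 0.796% of all tested genes. The median log2 change was 0.02, with 39 above 0 and 34 below. The shares of all tested genes given here also stand beside the counts of each single list. With 4 to 23 genes tested, 0 calls in a list say little.

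**Figure D5:**
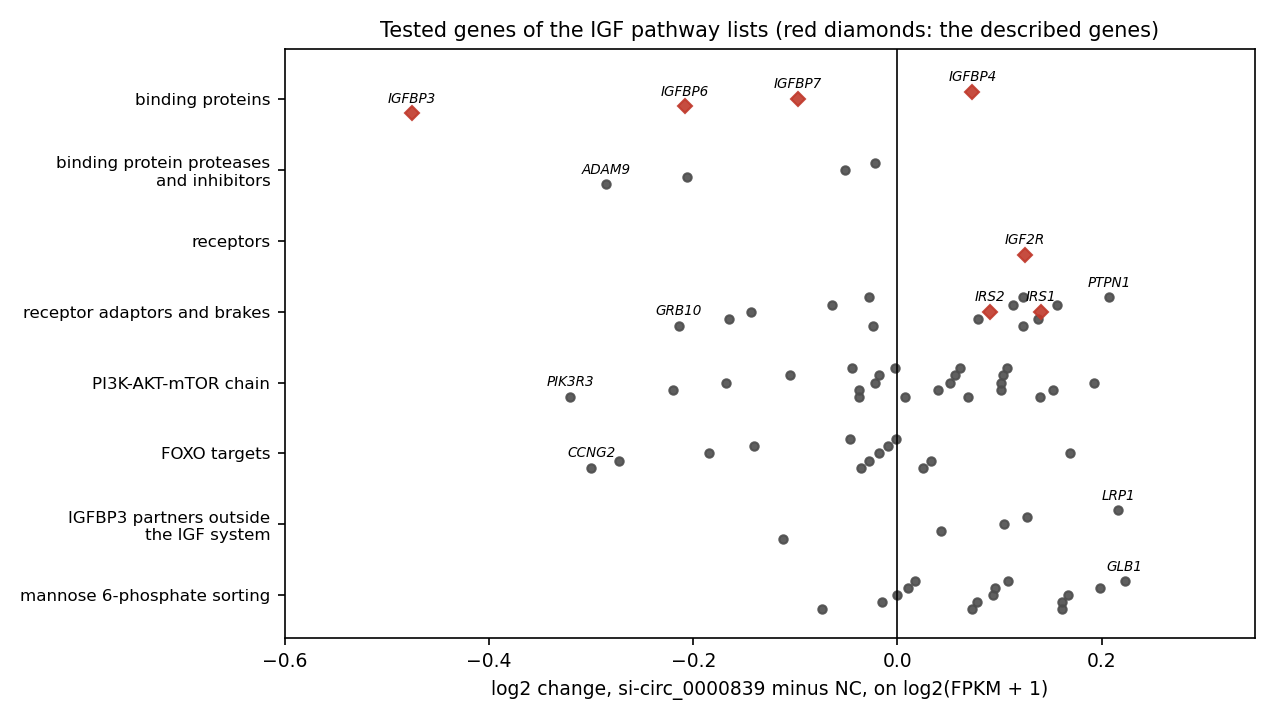
Log2 change of each tested gene of the pathway lists, si-circ_0000839 minus NC, on log2(FPKM + 1). Red diamonds are the described genes and grey points the others. IGFBP3 at -0.48 is the lowest point, and the other genes lie between -0.32 and 0.22.

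Among receptor adaptors and brakes 13 of 16 were tested, 0 passed in limma or voom, 2 had an unadjusted p under 0.05, and the median log2 change was 0.08. PTPN1, the phosphatase that dephosphorylates the insulin receptor, was at 25.9 ± 1.83 FPKM in NC against 30.0 ± 1.75 after si-circ_0000839 (adjusted p = 0.309 in limma). GRB10, an adaptor that inhibits both receptors, was at 6.97 ± 0.641 and 5.86 ± 0.338 (adjusted p = 0.322 in limma). SHC1, which links receptors to RAS, was the most abundant at 96.8 ± 6.54 and 105 ± 5.996. PYGO2 shares positions with SHC1 on the same strand.

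The PI3K, AKT and mTOR chain had 23 of 26 genes tested and 0 passed in limma or voom, with 2 at an unadjusted p under 0.05. The median log2 change was 0.04, and -0.0040 with the GC and length trend removed. PIK3R3, a regulatory subunit of PI3K, had the smallest p of the lists at 1.79 ± 0.240 FPKM in NC against 1.23 ± 0.10 after si-circ_0000839 (log2 change -0.32, adjusted p = 0.208 in limma, or a change of -0.50 with a pseudocount of 0.1). PIK3CD, a catalytic subunit, was at 23.1 ± 1.18 and 26.5 ± 1.66 (adjusted p = 0.318 in limma). EIF4EBP1, a brake on translation that mTOR releases, was the most abundant at 382 ± 26.2 and 401 ± 28.7. CLSTN1, at a mean of 73.8 FPKM, lies across PIK3CD on the opposite strand, so its reads are uncertain.

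FOXO factors are held out of the nucleus when AKT is active, and their target genes are a common readout of insulin and IGF signalling. Of 16 listed targets 13 were tested, 0 passed in limma or voom, and 1 had an unadjusted p under 0.05. The median log2 change was -0.03, with 10 of the 13 below 0, where 51.8% of all tested genes were above 0 in the reported fit. The count below 0 was 9 after quantile normalization, 8 with the GC and length trend removed and 7 after rescaling to TPM. The share of all tested genes under those settings is not given here. CCNG2, a cyclin linked to growth arrest, was at 3.71 ± 0.619 FPKM in NC against 2.81 ± 0.224 after si-circ_0000839 (log2 change -0.30, adjusted p = 0.282 in limma). KLHL24 was at 1.54 ± 0.422 and 1.09 ± 0.109, with overlapping groups, and CITED2, the most abundant, at 61.8 ± 3.43 and 60.5 ± 6.80.

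Proteins that IGFBP3 meets outside the IGF system had 5 of 6 genes tested, 0 passed in limma or voom and 1 had an unadjusted p under 0.05. LRP1, a large endocytic receptor, was at 12.3 ± 0.236 FPKM in NC against 14.5 ± 1.29 after si-circ_0000839 (log2 change 0.22, adjusted p = 0.289 in limma, or a change of 0.11 with the GC and length trend removed). STAT6, at a mean of 67.8 FPKM, lies across it on the opposite strand. HSPA5, the chaperone GRP78, was at 297 ± 8.17 and 325 ± 8.55 (adjusted p = 0.481 in limma).

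IGF2R also serves mannose 6-phosphate sorting, and the genes of that pathway were all expressed. Of 15 listed genes 15 were tested, 0 passed in limma or voom and 2 had an unadjusted p under 0.05. The median log2 change was 0.09, with 12 above 0 and 3 below, where 51.8% of all tested genes were above 0 in the reported fit. After rescaling to TPM the median was 0.116, with 14 above 0 and 1 below. With the GC and length trend removed it was 0.065, with 13 above 0 and 2 below. GLB1, the lysosomal beta-galactosidase, was at 21.7 ± 1.86 FPKM in NC against 25.5 ± 2.24 after si-circ_0000839 (adjusted p = 0.328 in limma), and TMPPE shares its positions on the same strand. CTSZ, the most abundant, was at 591 ± 29.2 and 632 ± 34.3.

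The genes whose profile over the 6 libraries lay nearest to that of IGFBP3 were sought among 5771 protein-coding genes averaging 5 FPKM or more, by the root mean square difference of their log2 deviations. Its median over these genes was 0.273. SCD, a fatty acid desaturase, was nearest at 0.0322. It stood at 7.75, 8.07 and 7.78 FPKM in NC and at 6.13, 5.17 and 4.90 after si-circ_0000839. SLC37A2, a sugar phosphate transporter, followed at 0.0402, with 8.77, 9.59 and 8.42 FPKM in NC and 6.78, 5.37 and 5.39 after si-circ_0000839. In both genes, as in IGFBP3, silenced replicate 1 was the highest of its group and NC replicate 2 the highest of all. These are the libraries with the raised GC trend. In IGFBP3 the same order held with the GC and length trend removed, and the part of the trend in the likeness was not tested. GLYCTK at 0.0732, which WDR82 crosses on the opposite strand, C4orf48 at 0.0770 and the arginine synthesis gene ASS1 at 0.0815 came next. The likeness rests on 6 libraries in 2 groups, so genes that differ between the groups by a like amount rank high by construction.

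Markers of other cell types gave a check on what the libraries held. The leukocyte markers PTPRC and CD3E had 0 reads in all libraries and CD68 at most 2, which is 0.0251 to 0.0480 FPKM in NC against 0 to 0.0232 after si-circ_0000839. The 4 endothelial markers summed to 0.0409 to 0.153 FPKM. Of 6 fibroblast markers none was at 0 reads in all libraries, while COL1A2 and DCN had at most 1 read in any library. The summed level of this list moved with IGFBP3, at 20.1 to 25.2 FPKM in NC and 14.5 to 19.1 after si-circ_0000839. Nearly all of it was LUM, a secreted proteoglycan, at 22.5 ± 2.53 FPKM in NC against 15.8 ± 2.40 after si-circ_0000839, and its part in the result was not tested. Without LUM the list summed to 0.449 to 0.572 FPKM in NC and 0.696 to 0.902 after si-circ_0000839, in the opposite direction to IGFBP3.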

How the data were processed

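The authors deposited FPKM per gene (fragments scaled to gene length and a total per library), 1 column per library, with gene lengths and coordinates, per the file headers. The submitters' processing notes list HISAT2 2.0.5 and featureCounts 1.5.0-p3. For the build, strand setting and scaling total nothing is stated in the sources used here. As recovered from the FPKM steps, that total was 0.958 times the recovered reads in NC replicate 2 and 0.971 times in si-circ_0000839 replicate 1. In the rest it was 1.00 to 1.02 times. All 58735 genes had the coordinates of GENCODE release 29, so positions are given as GRCh38. Other values of the deposited table used here are gene length, start and end. Sample titles gave the groups and the replicate numbers.

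Reads per gene were recovered by dividing FPKM times length by the worth of 1 read in that library, and 100% of values above 0 came out within 0.01 of a whole number. Genes averaging 1 FPKM or more were tested two-sided on log2(FPKM + 1) by limma 3.58.1 (R 4.3.3), with group as the only term and the prior variance following the mean. A gene is called at a Benjamini-Hochberg adjusted p under 0.05 over all 10674 tested genes. The pseudocount makes log2 changes of low genes too small, and folds are ratios of mean FPKM. Where 2 gene IDs shared a symbol (IGF2, SOD2), the ID with the higher mean was used. The fit was tested on simulated reads with known changes.

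The members, lists and rules were chosen with earlier results of these data known. From each list the text names called genes, or else the 2 with the smallest p and the most abundant, and the 5 protein-coding genes nearest to IGFBP3 in profile. A few genes of the lists are not reported here. Libraries were left out in turn, and other pseudocounts, filters, scalings, prior variances, voom on recovered reads, a replicate block and, after the data were seen, removal of a spline trend on GC content and length (5 degrees of freedom each) were tried. TPM values were brought back to the mean FPKM sum.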

Additional observations from a re-analysis of the deposited data

How the results depend on the processing

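No alternative turned the direction of IGFBP3, but leaving libraries out could not do so, as its groups do not overlap. The 0 calls among the other pathway genes held under all 19 alternatives. The number of these pathway genes at an unadjusted p under 0.05 in limma moved, from 10 of 73 in the reported fit. With the GC and length trend removed it was 22, where 2033 of 10670 tested genes were under 0.05. Without NC replicate 2 it was 20, against 1747 of 10674, and without si-circ_0000839 replicate 3 it was 2, against 898. The count of 41 called genes over the whole table was 4 with no filter, 68 at a minimum of 5 FPKM, 63 after quantile normalization, 85 with voom, 125 for protein-coding genes alone, 220 with the GC and length trend removed and 26 when si-circ_0000839 replicate 1 and NC replicate 2 were both left out. It was 20 to 38 with 1 library left out. The cause of these shifts was not tested. For the 7 tested members 8 values lost the threshold, all of IGFBP3, 123 stayed on their side of it, and 1 was reversed. That was IRS2, which ranged from -0.063 without both of those libraries to 0.17 with fewer libraries. Of the uncalled pathway genes, with libraries left out, STC2 ranged from -0.22 to 0.043 (0.013 without NC replicate 1) and CITED2 from -0.16 to 0.044 (0.00086 without NC replicate 3), each highest without si-circ_0000839 replicate 2. The share of IGFBP3 among IGFBP1 to IGFBP7 was 2.20 percentage points lower after si-circ_0000839 by FPKM and 4.49 by reads not divided by gene length. After rescaling to TPM, 0 neighbours in the NC order of levels overlapped, in place of 1. Counts of 4 to 14 reads limit what can be said of IGFBP2 and IGF2.

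Same-numbered libraries did not deviate together (correlations -0.149, -0.289 and 0.150), so the numbers were not taken as a pairing. With the replicate block 35 genes were called, 25 of them among the 41.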

Other observations

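The substrates IRS1 and IRS2 kept a ratio of 3.47 to 4.28 to each other in the 6 libraries. IRS1 had 3.81, 3.91 and 3.71 times the FPKM of IRS2 in NC replicates 1 to 3, and 3.47, 3.93 and 4.28 times after si-circ_0000839, with overlapping groups. In NC replicate 2 both were at their lowest, at 6.98 and 1.78 FPKM. With the GC and length trend removed NC replicate 2 stayed the lowest library for both, at -0.23 for IRS1 and -0.25 for IRS2 relative to the gene mean on the log2 scale.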
